A study of Homo sapiens with 4 samples.

Results

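Cell cycle and DNA replication genes were followed in RUES2, a line of human embryonic stem cells, on day 5 of a protocol that directs it towards heart. The set is a list of 42 genes given by name that covers licensing of replication origins, the replication fork, nucleotide supply, cyclins and their kinases, mitosis and the inhibitors of cyclin-dependent kinases. Of the 42, 41 had a named probe on the array and 40 had a probe that the scanner software called above background, with a detection p under 0.01, on 2 or more of the 4 arrays. CDKN2C had no named probe and the probe of CCNE2 was detected on no array, so both are left without a value. The 40 are set against the 10377 genes tested in all.

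The knockdown cells carried a lentiviral short hairpin RNA (shRNA) against TMEM88, whose product sits in the membrane and acts on the Wnt pathway, as 1 array with hairpin 691 and 1 array with hairpin 94. The control cells carried a control shRNA (2 arrays, controls 1 and 2). All 4 cultures were transduced as undifferentiated cells, selected with puromycin, differentiated towards the heart and lysed at day 5, when cardiovascular progenitors arise. All came from 1 cell line, each TMEM88 hairpin is present once, and no label states that the samples were grown separately, so p-values reflect the spread among these 4 samples, some or all of which may be technical.

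The hairpins left unlike amounts of the target. TMEM88 gave signals of 360.7 with hairpin 691 and 1329.7 with hairpin 94, against 2292.8 and 2987 in controls 1 and 2, or 9.62% and 52.9% of the control mean, and its log2 difference did not pass (-2.15 ± 0.71, limma adjusted p = 0.187). Between 15300 and 16516 of 47322 probes were detected per array, with median signals of 130.9 to 135.7. Of 11 markers of cardiovascular progenitors 9 were tested; 6 and 7 of them were detected with hairpins 691 and 94, against 8 and 9 in controls 1 and 2, while TBX5 and TBX20 were detected on no array. With 4 arrays, all intervals are wide.

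As background, a cell prepares to replicate its DNA by loading the MCM2 to MCM7 helicase on origins with the help of CDC6 and CDT1, and then fires the origins under the control of cyclin-dependent kinases. D cyclins with CDK4 or CDK6 act in G1, E cyclins with CDK2 at entry into S phase, and cyclins A and B with CDK1 in G2 and mitosis. Pluripotent stem cells are known for a short G1, which lengthens as they differentiate. Genes of S phase are classically driven by E2F factors. Genes of G2 and mitosis are controlled by the DREAM and MuvB complexes acting through the CHR element, and through CCAAT boxes bound by NF-Y.

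These elements can be read in the promoters of the set. They are shown because replication groups and mitotic groups leaned to opposite sides between the hairpins. Between the controls both leaned to the same side, and MCM6 itself did not differ between the hairpins. The examples were chosen after their values were seen, and a link of the motifs to expression was not tested. The windows are those of RefSeq for GRCh38.p14, from 250 bases before to 50 bases after the start, with the first listed window of each gene; 32 of the 40 genes had one. The motifs searched on both strands were TTCCCGC and TTGGCGC for E2F, TTTGAA for the CHR element and CCAAT for the CCAAT box. A CCAAT box read on the opposite strand can overlap TTGGCGC. Each line gives the 250 bases before the start, 5′ to 3′ on the gene's strand, with every match to one of these motifs, on either strand, in capitals. The first pair are a helicase gene and a ribonucleotide reductase gene, the next 3 are mitotic genes, and the last is CDK6, the D cyclin kinase gene with the lowest difference in the set.
MCM6 (chr2:135876444-135876693, minus strand): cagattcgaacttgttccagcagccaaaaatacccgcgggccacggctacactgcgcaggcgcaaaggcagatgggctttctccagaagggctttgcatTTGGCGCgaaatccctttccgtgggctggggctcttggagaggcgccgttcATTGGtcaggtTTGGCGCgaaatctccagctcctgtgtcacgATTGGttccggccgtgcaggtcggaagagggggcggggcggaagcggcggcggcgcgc
RRM1 (chr11:4094435-4094684, plus strand): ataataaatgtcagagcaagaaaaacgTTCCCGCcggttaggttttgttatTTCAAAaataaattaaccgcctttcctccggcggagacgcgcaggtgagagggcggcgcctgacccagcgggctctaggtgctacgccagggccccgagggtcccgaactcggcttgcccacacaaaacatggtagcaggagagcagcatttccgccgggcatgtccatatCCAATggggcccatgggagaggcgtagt
CCNB2 (chr15:59104896-59105145, plus strand): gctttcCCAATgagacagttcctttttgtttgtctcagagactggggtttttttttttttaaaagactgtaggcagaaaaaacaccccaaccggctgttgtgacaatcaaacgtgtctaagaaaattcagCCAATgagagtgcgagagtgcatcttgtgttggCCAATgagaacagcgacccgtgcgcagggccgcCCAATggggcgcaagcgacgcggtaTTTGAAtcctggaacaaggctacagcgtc
PLK1 (chr16:23678639-23678888, plus strand): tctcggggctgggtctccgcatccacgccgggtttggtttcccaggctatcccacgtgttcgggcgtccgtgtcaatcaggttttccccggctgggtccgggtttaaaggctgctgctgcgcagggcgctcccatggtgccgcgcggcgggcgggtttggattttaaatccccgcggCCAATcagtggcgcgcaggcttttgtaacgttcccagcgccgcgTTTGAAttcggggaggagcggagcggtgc
CDC20 (chr1:43358731-43358980, plus strand): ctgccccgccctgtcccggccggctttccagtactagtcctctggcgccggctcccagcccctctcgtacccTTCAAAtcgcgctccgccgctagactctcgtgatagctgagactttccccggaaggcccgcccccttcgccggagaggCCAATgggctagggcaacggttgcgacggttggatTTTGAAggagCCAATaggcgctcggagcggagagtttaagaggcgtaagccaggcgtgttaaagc
CDK6 (chr7:92836574-92836823, minus strand): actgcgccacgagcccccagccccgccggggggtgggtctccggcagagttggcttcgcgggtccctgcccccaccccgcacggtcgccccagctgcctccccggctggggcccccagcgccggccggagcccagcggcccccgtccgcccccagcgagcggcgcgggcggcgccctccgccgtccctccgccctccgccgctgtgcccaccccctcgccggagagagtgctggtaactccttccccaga

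The MCM6 stretch held 2 E2F-type matches and 2 CCAAT boxes and no CHR-type match. The RRM1 stretch held 1 match of each kind. The CCNB2 stretch held 4 CCAAT boxes and 1 CHR-type match and no E2F-type match. PLK1 had 1 CHR-type match and CDC20 had 2. The letters of these motifs were not found in the CDK6 stretch, from which nothing follows about the factors. Over whole windows, an E2F-type match was present in 6 of 7 licensing and helicase genes (85.7%) and 3 of 4 genes of the fork and of nucleotide supply, against 15.0% of the 8438 windows of all genes tested. A CHR-type match was present in 5 of 7 genes of mitotic kinases, checkpoint, centromere and anaphase-promoting complex (71.4%), against 9.68% of all genes tested. CCAAT boxes were present in 22 of the 32 windows (68.8%), against 37.7% of all. In genes outside the set the pattern was alike: 12 of 20 other S phase genes had an E2F-type match and none a CHR-type match, and 24 of 35 other G2/M genes had a CHR-type match and 6 an E2F-type match. A match is a string of letters and not a measured binding site.

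**Figure D1:**
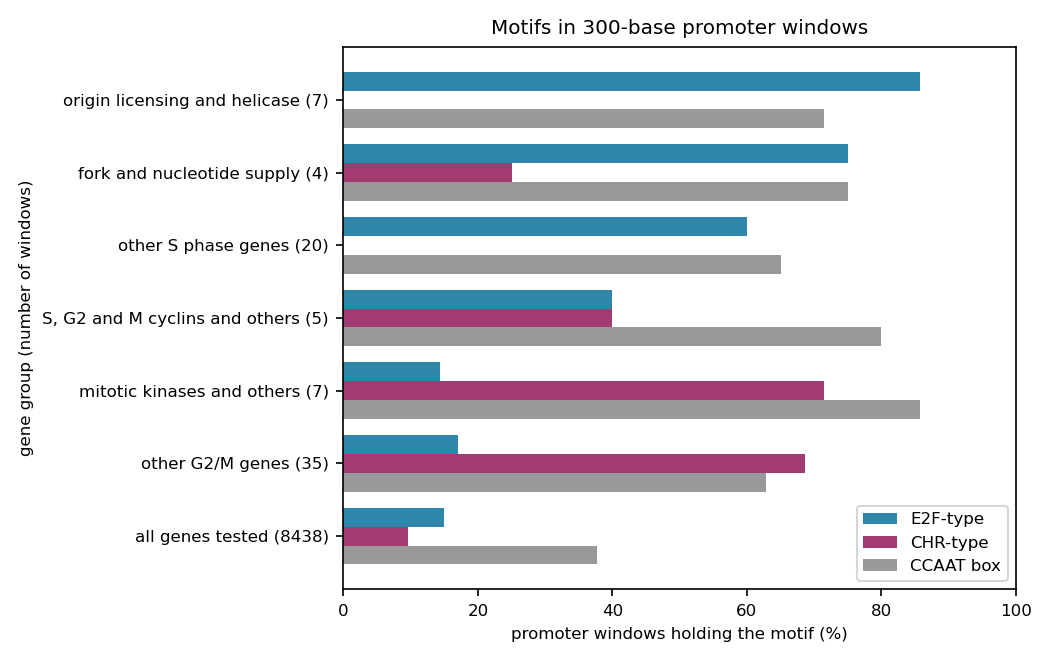
Share of 300-base promoter windows (x axis, percent) that hold an E2F-type, CHR-type or CCAAT match, for gene groups on the y axis with the number of windows in brackets. E2F-type matches reach 85.7% in the licensing and helicase genes and CHR-type matches 71.4% in the mitotic group, against 15.0% and 9.68% of all genes tested.

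The first comparison asked whether cells with a TMEM88 hairpin differed from control cells in these genes. None of the 40 passed (limma, Benjamini-Hochberg adjusted p under 0.05 over all genes), where 1.98% of all genes tested passed (0.954% higher and 1.02% lower). At an adjusted p under 0.10 there were 2 of 40, where 4.32% of all genes passed, and at an unadjusted p under 0.05 there were 3 of 40 (7.50%), against 18.3% of all. With 37 of 40 genes (92.5%) within 2-fold, the set lay as close to no difference as genes at large (92.8%). The median log2 difference was 0.04, and 0.00 over all genes. The 2 genes farthest from 0 belong to the same G1 step in opposite directions: CCND1, encoding cyclin D1, was above the controls with both hairpins, and CDK6, encoding a kinase that D cyclins activate, was below them. Since these are whole cultures, fewer cycling cells and less RNA per cell cannot be told apart.

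D cyclins and their kinases held the widest differences. CCND1, a G1 cyclin gene and a known Wnt target in many tissues, gave signals of 3007.5 with hairpin 691 and 2213.3 with hairpin 94, against 1126.8 and 1250.1 in controls 1 and 2. Both hairpins were above both controls, at 276% and 207% of the control mean after normalization. The log2 difference of CCND1 was 1.26 ± 0.25 (SE, n = 2 per group, 95% interval 0.65 to 1.86), a 2.39-fold difference with a limma adjusted p of 0.0643.

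CDK6 gave signals of 936.8 and 829.9 with hairpins 691 and 94, against 1716.1 and 2537.4 in controls 1 and 2. Both hairpins were below both controls, at 42.1% and 40% of the control mean, while the controls themselves were 1.55-fold apart after normalization. The log2 difference of CDK6 was -1.29 ± 0.28 (95% interval -1.95 to -0.62, limma adjusted p = 0.0811). Neither gene passed at 0.05. CCND1 passed without background correction (limma adjusted p = 0.036) and with the deposited log2 matrix (limma adjusted p = 0.0314). Both genes passed with an intensity trend in the variance model, where limma gave adjusted p = 0.0187 for CCND1 and adjusted p = 0.0308 for CDK6. Over all alternatives the adjusted p ranged from 0.0187 to 0.471 for CCND1 and from 0.00551 to 0.392 for CDK6, highest where a hairpin was left out.

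Markers of cell types moved with the same groups. Summed signals of mesendoderm markers (3 tested of 5, TBXT detected on no array) were 5494.9 and 3994 with hairpins 691 and 94, against 726.9 and 869.9 in controls 1 and 2, and 2 of these genes rose. Cardiomyocyte markers (3 tested of 7) summed to 929.5 and 817.8 with the hairpins, against 5071.8 and 3925.8 in the controls, and all 3 fell. Endoderm markers (6 tested of 6, none called) summed to 3474.5 and 2608.7 with the hairpins, against 1798.5 and 1266.5 in the controls. Neural markers (2 tested of 4, PAX6 and SOX1 detected on no array) summed to 2558.8 and 2451.8 with the hairpins, against 653.5 and 353.4 in the controls, and both, OTX2 and ZIC2, rose. Blood markers (2 tested of 6) summed to 236 and 278.8 with the hairpins, against 1383.3 and 1182.6 in the controls, and HBE1 fell. HBE1 was detected with neither hairpin, and on background-corrected values it was at least 24.3-fold lower. Endothelial markers (2 tested of 5, PECAM1, CDH5 and TIE1 detected on no array, none called) summed to 2998.5 and 2020 with the hairpins, against 1177.6 and 776.6 in the controls. That difference was in VWF alone (2773.6 and 1780.9 with the hairpins, against 905.1 and 557.4). TEK overlapped between the groups (224.9 and 239.1, against 272.5 and 219.2). Of the 9 cardiovascular progenitor markers tested HAND2, MEF2C and PDGFRA fell. By gene, 4 of the 9 had a positive log2 difference and 5 a negative one. HAND2 was detected with 1 hairpin and MEF2C with neither, so MEF2C passed the detection filter only through the controls. NKX2-5 was above both controls with both hairpins (0.97 ± 0.42) but did not pass. The 9 summed to 10174.7 and 10758.5 with the hairpins, against 9259.1 and 13209.3 in the controls. HAND1 (4682.2 and 4330.9, against 1666.1 and 4866.2) and ISL1 (3494 and 4336.9, against 3411.2 and 4308.7) made up most of each sum. Pluripotency markers (8 tested of 11, none called) summed to 19722.9 and 14479.2 with the hairpins, against 13608.9 and 14634.1 in the controls. LIN28A made up most of each sum (11058 and 7878.6, against 7362 and 7592.4). By gene, 7 of the 8 had a positive log2 difference and 1, LIN28B, a negative one, with a median of 0.43. The part of cell makeup in CCND1 and CDK6 was not tested.

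The other genes of this step lay nearer to the controls. CDK4, the second D cyclin kinase, had signals of 1527.4 and 1758.3 with hairpins 691 and 94, against 2513.4 and 2035.4 in controls 1 and 2, with no overlap and a log2 difference of -0.44 ± 0.25. CCND2, a sister of CCND1, gave signals of 4345 and 3902.5 with the hairpins, against 3377.1 and 3300 in the controls, and CCND3 gave 819.3 and 612.1, against 856.3 and 1031.3. Neither gene had hairpin and control arrays that overlapped. CCND2 was on the side of CCND1 (log2 difference 0.33 ± 0.23) and CCND3 on the side of CDK6 (-0.41 ± 0.26). None of the 3 passed (limma adjusted p = 0.409 for CDK4, 0.494 for CCND2 and 0.459 for CCND3). All 5 genes of this group thus had arrays that did not overlap, against 50.2% of all genes tested; over the whole set it was 13 of 40 genes (32.5%), with 4 higher and 9 lower where 25.2% and 24.9% of all genes were.

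**Figure D2:**
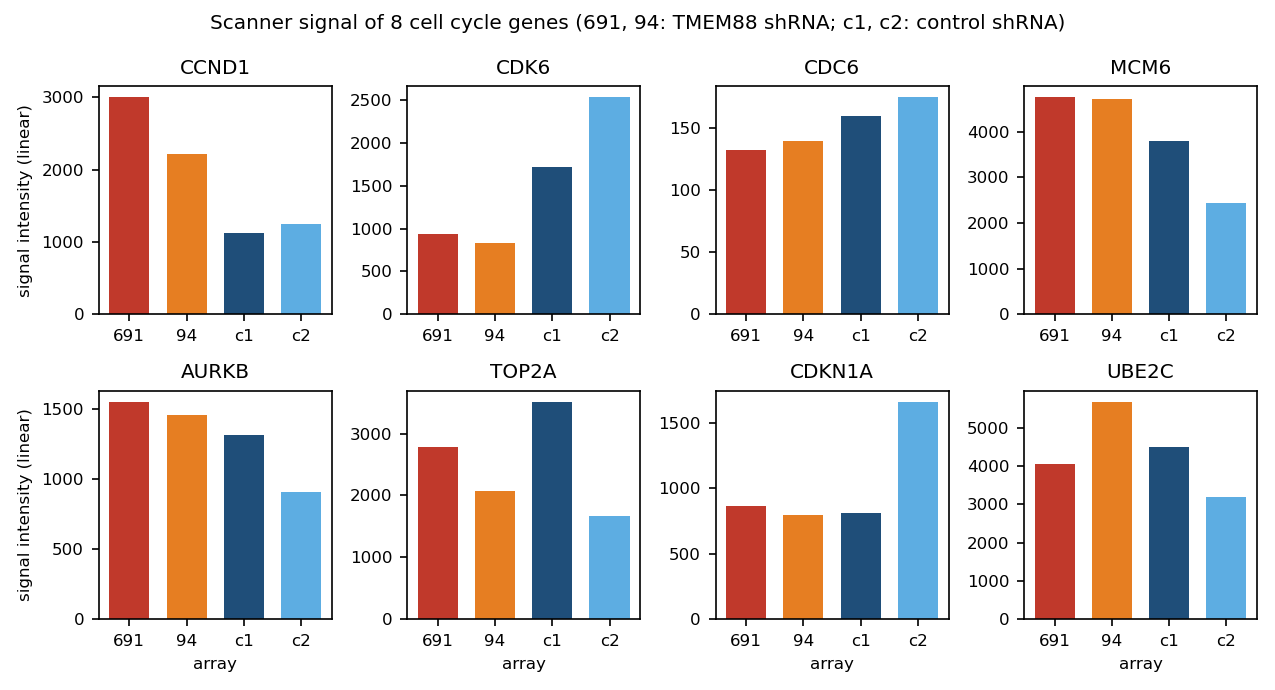
Linear scanner signal (y axis) of 8 genes on each array, with hairpins 691 and 94 of the TMEM88 shRNA left of controls 1 and 2 (c1, c2). CCND1 was at 3007.5 and 2213.3 with the hairpins, against 1126.8 and 1250.1 in the controls, whereas CDKN1A and TOP2A set control 2 apart from control 1.

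Among the genes of origin licensing and of the helicase, none of 9 passed and the median log2 difference was -0.01. CDC6, the loader of the helicase, was detected in controls 1 and 2 but with neither hairpin, with signals of 132.6 and 139.9 with hairpins 691 and 94, against 159.7 and 175.5 in controls 1 and 2. On background-corrected values it was at least 1.5-fold lower with the hairpins, and it did not pass (limma adjusted p = 0.118). For this bound each hairpin array was given its own signal for the probe or the dimmest signal that counted as detected on it, whichever was more. Without background correction the log2 difference of CDC6 was -0.32, against -1.02 with it, so the bound does not hold for uncorrected signals. CDC6 passed the detection filter only through the controls, and its signals lay close to background on all 4 arrays.

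MCM6, a helicase subunit, gave signals of 4761.6 and 4704 with hairpins 691 and 94, against 3796.8 and 2445.6 in controls 1 and 2. Both hairpins were above both controls, but the controls were 1.59-fold apart after normalization, and the log2 difference of 0.66 ± 0.29 did not pass (95% interval -0.02 to 1.33, limma adjusted p = 0.287). MCM7 gave signals of 5582.4 and 5340.8 with the hairpins, against 6362.7 and 6620.3 in the controls, a log2 difference of -0.28 ± 0.22, and a second detected probe of MCM7 gave 0.11. MCM2, MCM3, MCM4 and MCM5 overlapped between groups, with log2 differences between -0.09 and 0.11. CDT1, which loads the helicase with CDC6, and GINS2, a subunit of the active helicase, had log2 differences of -0.08 ± 0.28 and 0.04 ± 0.25, with both hairpins between the controls after normalization.

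At the fork and in nucleotide supply, PCNA, the sliding clamp of DNA polymerase, gave signals of 1502.9 and 1163.7 with hairpins 691 and 94, against 1645.7 and 1903.3 in controls 1 and 2. The arrays did not overlap and the log2 difference of PCNA was -0.38 ± 0.25 (limma adjusted p = 0.477). A second, weaker probe of PCNA, detected on 3 arrays, gave 0.28, the opposite sign. RRM2, the regulated subunit of ribonucleotide reductase, had signals of 224.1 and 199 with the hairpins, against 258.8 and 220.1 in the controls, and its larger partner RRM1 had 3237.1 and 2812.9, against 3986.9 and 2632. After normalization RRM2 was below both controls with either hairpin (log2 difference -0.36 ± 0.24), whereas both hairpins of RRM1 lay between the controls. TYMS, the thymidylate synthase gene, also had both hairpins between the controls (log2 difference 0.23 ± 0.29).

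The genes of entry into S phase stood near 0. CCNE1 (cyclin E1), CDK2 (its kinase) and CDC25A (the phosphatase that activates it) had log2 differences of -0.03 ± 0.29, 0.07 ± 0.24 and -0.16 ± 0.28. Their 95% intervals reached from -0.73 to 0.67 for CCNE1, from -0.50 to 0.63 for CDK2 and from -0.82 to 0.51 for CDC25A. Their arrays overlapped between the groups.

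In G2 and mitosis, 4 of 5 genes of the S, G2 and M cyclin group and 7 of 10 genes of the mitotic group had a positive difference, and none passed. AURKB, a kinase of the chromosomal passenger complex, gave signals of 1551.9 and 1455.5 with hairpins 691 and 94, against 1313.1 and 910.4 in controls 1 and 2. Both hairpins were above both controls, with a log2 difference of 0.57 ± 0.26 (95% interval -0.06 to 1.20, limma adjusted p = 0.309). CENPF, a kinetochore protein gene, gave signals of 486 and 428 with the hairpins, against 892.7 and 497.7 in the controls, a log2 difference of -0.62 ± 0.34 (limma adjusted p = 0.389). The arrays did not overlap, and control 1 stood well above the other 3. The log2 difference of CENPF was -1.08 without control 2 and -0.15 without control 1.

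CCNB1, encoding cyclin B1, had signals of 350.3 with hairpin 691 and 471.1 with hairpin 94, against 558.4 and 511.8 in controls 1 and 2. Its log2 difference of -0.50 ± 0.31 came mainly from hairpin 691 (-0.89), with hairpin 94 at -0.10. CCNA2, CCNB2, CDK1 and CDC25C, the other cyclins, kinase and phosphatase of this stage, had log2 differences of 0.19 to 0.30. Among the mitotic regulators AURKA, PLK1, BUB1, BUB1B, BIRC5, CENPA, CDC20 and UBE2C the log2 differences lay between -0.10 (CDC20) and 0.39 (BUB1).

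UBE2C, the ubiquitin-conjugating enzyme of the anaphase-promoting complex, was the only gene whose detected probes were over 2-fold apart in their difference. Its brighter probe gave signals of 4064.8 and 5683.6 with hairpins 691 and 94, against 4492.7 and 3199.4 in controls 1 and 2, a log2 difference of 0.34. Its second probe gave signals of 165.4 and 175.6 with the hairpins, against 185.4 and 282.7 in the controls, a log2 difference of -0.95. The high array of the second probe was control 2, the low array of the first. Over the set, 15 second probes were detected and 7 of them had the other sign, each beside a log2 difference of at most 0.38 in size.

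The proliferation markers and inhibitors did not separate the groups. MKI67, encoding the Ki-67 antigen, was detected with hairpin 691 and in control 1 only, with signals of 168.2 and 145.6 with hairpins 691 and 94, against 190.1 and 149.8 in controls 1 and 2. TOP2A, the topoisomerase of mitotic chromosomes, gave 2788.4 and 2077.9 with the hairpins, against 3516.3 and 1671.9 in the controls. CDKN1A, encoding the p53-induced inhibitor p21, gave 865.1 and 798.8 with the hairpins, against 813.3 and 1660.6 in the controls. In TOP2A and, after normalization, in CDKN1A both hairpins lay between the controls, so the log2 differences of 0.05 ± 0.39 and -0.46 ± 0.38 were within the spread of the control pair. CDKN1B, encoding the inhibitor p27, had a log2 difference of 0.16 ± 0.29 and a second probe of CDKN1B gave -0.43.

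**Figure D3:**
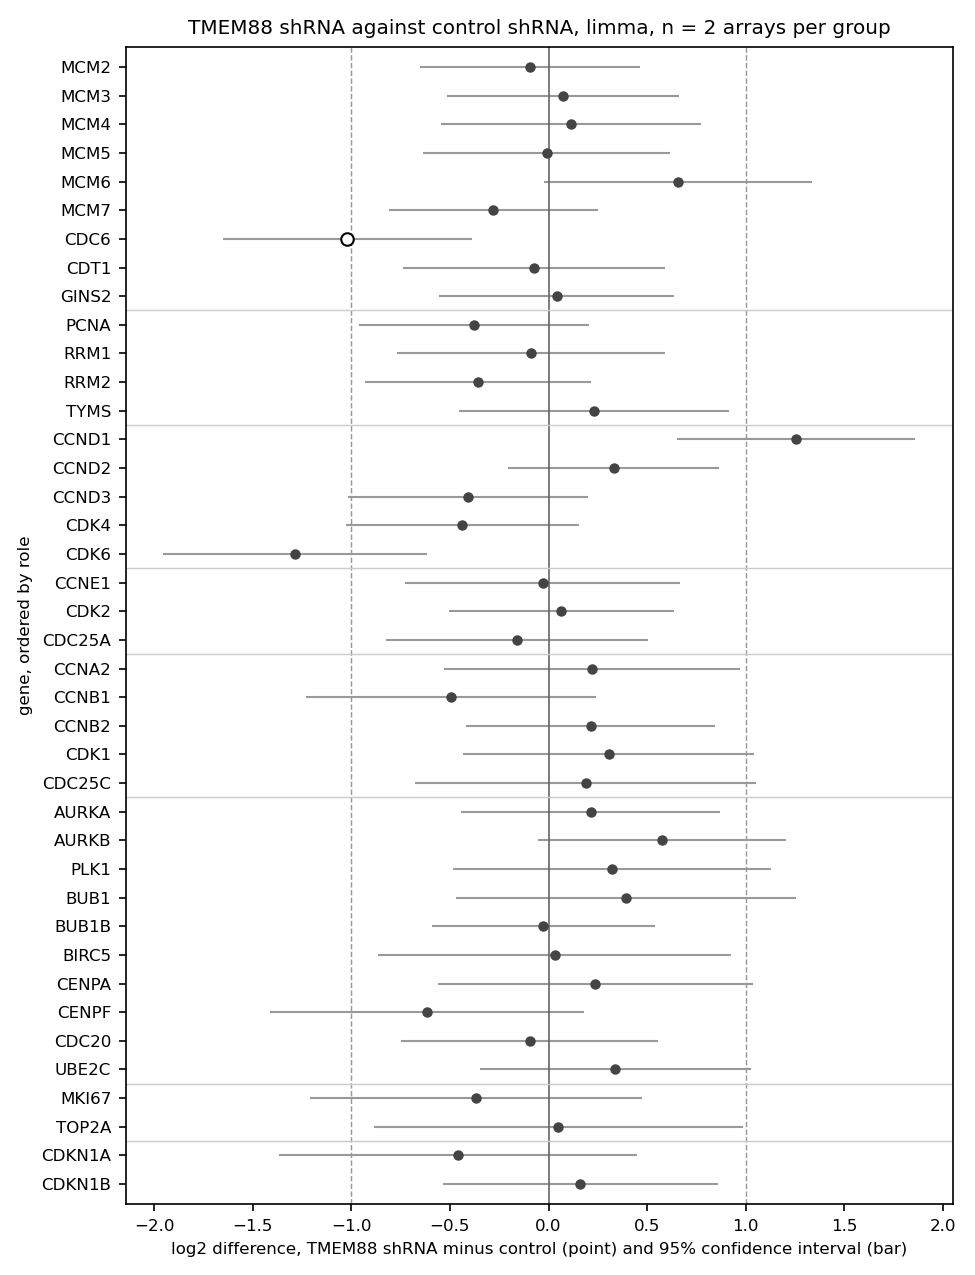
Log2 difference of the TMEM88 shRNA arrays minus the control arrays (x axis, point) with its 95% confidence interval (bar) for 40 genes ordered by role on the y axis; dashed lines mark 2-fold. CCND1 (1.26) and CDK6 (-1.29) lie past 2-fold and 37 genes within it. The open symbol is CDC6, not above background with either hairpin. For CDC6 only a bound of at least 1.5-fold lower is given, and it rests on the background correction.

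Genes of the same processes outside the set were read from further lists, where 1.98% of all genes tested passed. None passed among 24 other S phase genes (median log2 difference -0.11), 40 other G2/M genes (0.12), 18 other origin and replisome genes (-0.05), 18 genes of the RB, E2F and MYC regulators (-0.02) and 15 other checkpoint and inhibitor genes (0.13). The brightest of each list gave log2 differences of 0.31 ± 0.25 for UNG (uracil excision), -0.44 ± 0.27 for CDCA7 (a MYC-responsive gene), 0.38 ± 0.26 for CKS1B and 0.11 ± 0.24 for CKS2 (CDK-binding subunits), -0.17 ± 0.24 for ORC6 (origin recognition) and 0.18 ± 0.26 for RPA3 (single-strand binding). The regulators MYCN and SKP2, an E3 ligase subunit that targets p27, gave 0.12 ± 0.25 and -0.29 ± 0.27. BUB3, a spindle checkpoint gene, gave -0.10 ± 0.22 and CCNG1, a p53-responsive cyclin gene, gave 0.32 ± 0.25. Of 11 p53 targets other than CDKN1A, TP53I3 alone passed (-1.42 ± 0.22, limma adjusted p = 0.0297), with a list median of -0.11.

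The second comparison set control 1 against control 2, to show how far these genes vary between arrays of 1 group. It has 1 array on each side, so no test was made. Control 1 was above control 2 in 31 of 40 genes (77.5%), where 52.5% of all genes tested were above. The median log2 difference between the controls was 0.41 in the set, against 0.03 over all genes. It was wide in genes of mitosis: control 1 was above control 2 in 10 of 10 genes of the mitotic group (median 0.58), in 5 of 5 of the S, G2 and M cyclin group (0.79) and in TOP2A (1.14). Replication genes leaned the same way, with control 1 above in 6 of 9 licensing and helicase genes (0.29) and 3 of 4 of the fork and nucleotide group (0.49). It was above in 2 of 3 genes of entry into S phase (0.22), but in 2 of 5 D cyclins and their kinases (-0.20). MKI67, not above background in control 2, had signals of 190.1 in control 1 and 149.8 in control 2. Second probes of AURKA (0.42), BIRC5 (1.19) and CENPA (0.80) were also higher in control 1, but that of UBE2C was lower (-1.20, where the brighter probe gave 0.50).

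Past 2-fold between the controls lay 3 of 40 genes (7.50%), where 7.01% of all genes did, 3.64% higher and 3.36% lower in control 1. Without background correction it was 2 of 40 genes, against 149 of 10377. The 3 were BUB1, a spindle checkpoint kinase gene, 2.10-fold apart after normalization with signals of 566.4 in control 1 and 313.9 in control 2, TOP2A at 3516.3 and 1671.9, and CDKN1A at 813.3 and 1660.6. CDKN1A thus ran opposite to the mitotic genes, with a log2 difference of -1.15 between the controls. CDC25A (-0.61), CDT1 (-0.60), CDK6 (-0.64), CCND3 (-0.34), PCNA (-0.25) and CCND1 (-0.20) were also lower in control 1, as was MCM7 (-0.02). CDC6 was lower too, with signals close to background. A second, weaker probe of PCNA ran the other way, with signals of 201.7 in control 1 and 147.6, not above background, in control 2.

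Other genes of G2 and mitosis leaned the same way. Control 1 was above control 2 in 37 of 40 other G2/M genes (median log2 difference 0.56), with HMMR, a spindle protein gene, at 1.94, chosen after its values were seen. It was above in 14 of 24 other S phase genes (0.04), near the share and median of all genes. Among other origin and replisome genes it was above in 14 of 18 (0.27). The genes share their arrays, so these counts are not independent of each other. Markers of other cell types also differed between the controls. Pluripotency markers (NANOG and DPPA2 detected on no array) summed to 13608.9 in control 1 and 14634.1 in control 2, of which LIN28A gave 7362 and 7592.4, but POU5F1 had signals of 220.6 in control 1 and 575.5 in control 2, and L1TD1 had 338 and 636.9. ZIC2 had 445.7 in control 1 and 208.1 in control 2, EOMES 265.2 and 526.9, and KDR 139.5, not above background, and 284.9. These 5 were chosen after their values were seen, and most of their lists were split. After normalization 4 of the 8 pluripotency markers tested were higher in control 1 and 4 lower. Of the 3 mesendoderm markers tested, MESP1 alone was higher in control 1 (322.5, against 200 in control 2). Cardiovascular progenitor markers summed to 9259.1 in control 1 and 13209.3 in control 2, of which HAND1 gave 1666.1 and 4866.2 and ISL1 gave 3411.2 and 4308.7. By gene, 3 of the 9 tested were higher in control 1 after normalization and 6 were lower. The part of the cell makeup in the difference between the controls was not tested.

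Both hairpin arrays lay between the 2 controls in 12 of 40 genes (30.0%), where 17.1% of all genes did. They were CDT1, GINS2, RRM1, TYMS, CCNE1, CDC25A, CCNA2, CDK1, BUB1, BUB1B, TOP2A and CDKN1A. The sign of a difference between groups therefore often turned on which control was used: without control 1, 6 of 40 genes changed sign, and without control 2, 18 did. Without control 1 the log2 difference was 0.99 for MCM6, 0.93 for BUB1, -1.60 for CDK6, -1.04 for CDKN1A and -0.15 for CENPF. Without control 2 it was 0.32 for MCM6, -0.14 for BUB1, -0.97 for CDK6, 0.12 for CDKN1A and -1.08 for CENPF. These examples were chosen after their values were seen. Each such fit keeps a lone control and takes its spread from the pair of hairpins, so no call is read from it here.

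**Figure D4:**
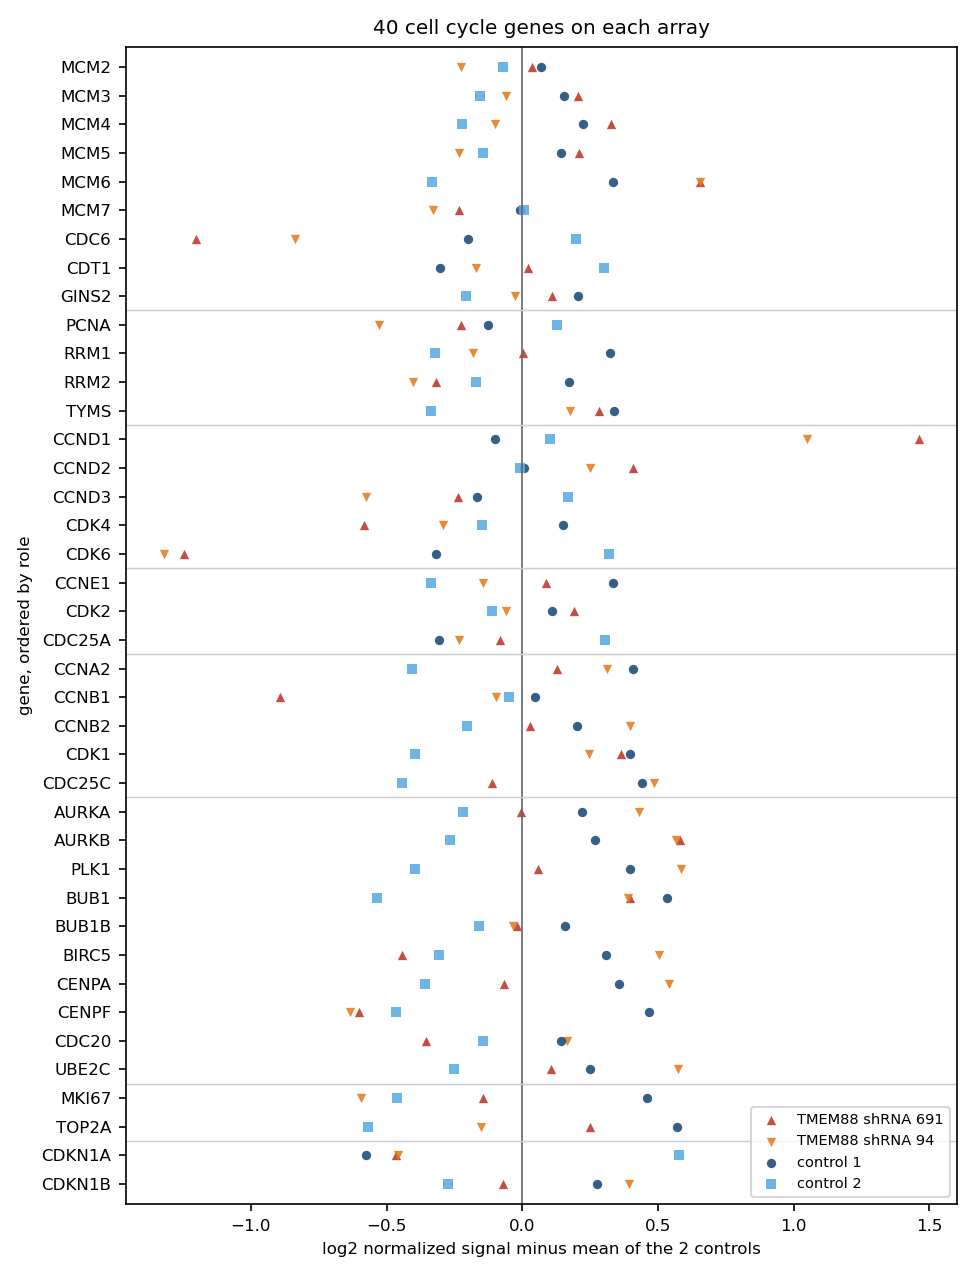
Normalized log2 signal of 40 genes (y axis, ordered by role) on each array, as the difference from the mean of the 2 controls (x axis). CCND1 and CDK6 set both hairpins apart from both controls, while in the mitotic genes control 1 lies right of control 2 in 10 of 10.

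The third comparison set hairpin 691 beside hairpin 94. Both share the same controls, so their values are given side by side. Past 2-fold from the control mean lay CCND1, CDK6 and CDC6 with hairpin 691 (3 of 40, 7.50%, where 8.21% of all genes did, 4.49% higher and 3.72% lower) and CCND1 and CDK6 with hairpin 94 (2 of 40, 5.00%, where 8.13% did, 3.66% higher and 4.47% lower). CDC6 is in that count with a value not above background, so its size with each hairpin is not given, and without background correction 2 genes were past 2-fold with hairpin 691. CCND1 stood at 1.46 and 1.05 with hairpins 691 and 94, and CDK6 at -1.25 and -1.32.

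The direct difference of hairpin 691 minus hairpin 94 had opposite signs in replication and in mitosis. Hairpin 691 was above hairpin 94 in 7 of 9 licensing and helicase genes (median log2 difference 0.19), 4 of 4 of the fork and nucleotide group (0.15) and 3 of 3 of the genes of entry into S phase (0.23). It was below hairpin 94 in 4 of 5 genes of the S, G2 and M cyclin group (-0.37) and 6 of 10 of the mitotic group (-0.45), and the other 4 mitotic genes, AURKB, BUB1, BUB1B and CENPF, differed by 0.03 at most. Over all genes tested, 51.2% were above, with a median of 0.01. The widest was BIRC5, encoding the passenger complex subunit survivin, at -0.95, with signals of 966.4 with hairpin 691 and 1657.4 with hairpin 94, against 1589.6 and 1052 in controls 1 and 2. No member was past 2-fold between the hairpins, where 1.52% of all genes were.

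Second probes gave the same side for AURKA (-0.55), BIRC5 (-0.37), CENPA (-0.58), UBE2C (-0.50) and both further probes of CDC25C (-0.46 and -0.81), and the other side for CDK1 (-0.40, where the brighter probe gave 0.12) and, among the helicase genes, MCM7 (-0.09, where the brighter probe gave 0.09). Other genes of these phases leaned likewise: hairpin 691 was below hairpin 94 in 29 of 40 other G2/M genes (median -0.19) and above it in 15 of 24 other S phase genes (0.17). TOP2A, though a gene of G2 and mitosis, was higher with hairpin 691 (0.40), and MKI67 was above background with hairpin 691 and not with hairpin 94. With 1 array for each hairpin, the difference has no replicate check, and the set's median size of 0.26 was below that between the 2 controls, 0.52. Over all genes tested the median sizes were 0.21 between the hairpins and 0.34 between the controls. Pluripotency markers summed to 19722.9 with hairpin 691 and 14479.2 with hairpin 94, of which LIN28A gave 11058 and 7878.6, and their part in the difference was not tested.

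**Figure D5:**
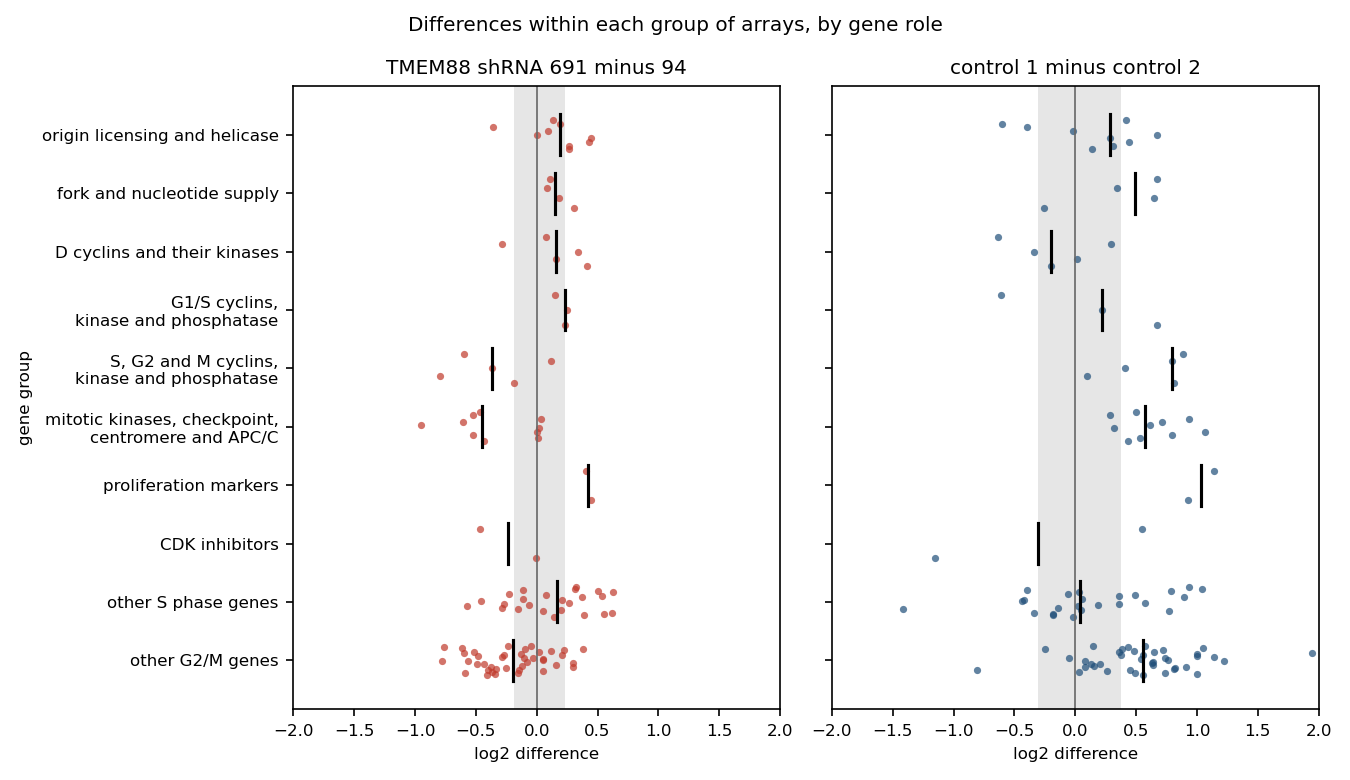
Log2 differences (x axes) of hairpin 691 minus hairpin 94 (left) and control 1 minus control 2 (right) for single genes (points) and group medians (black bars), by role on the y axis; the grey band spans the quartiles of all genes tested. In the mitotic group 6 of 10 genes lie left of 0 between the hairpins (median -0.45) and 10 of 10 right of 0 between the controls (median 0.58).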

How the data were processed

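RNA from 4 samples was measured on single-colour Illumina bead arrays. The scanner table holds, per the file headers, a linear signal intensity and a detection p-value for each of 47322 probes on each array, deposited without normalization. The authors also deposited a log2 matrix with near-equal column medians (7.02), from which quantile-normalized log2 signals differed by a median of 0.0363; how it was made is not stated in what was used here. Per the submitters' processing notes, lumi and limma 3.12.3 were among the tools, with no role given.

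Groups came from the labels, and the replicate-like codes of the titles are not shared between groups. Here the neqc function of limma 3.58.1 (R 4.3.3) removed background, with negative controls inferred from detection p-values and an offset of 16, and quantile-normalized the arrays. Symbols came from the platform annotation (30113 probes with 1 symbol, 8 with several, 17201 with none), updated through gene IDs to GRCh38.p14. Each of 10377 genes entered by its brightest probe detected (p under 0.01) on 2 or more arrays. The group test was limma's moderated test (lmFit, eBayes), 2-sided, Benjamini-Hochberg over all genes, threshold 0.05, with 2 residual and 4.84 prior degrees of freedom. Differences are TMEM88 shRNA minus control. Single arrays were compared by value, with a 2-fold mark and no test.

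The members and gene lists were chosen with earlier results of these data known, and the lists were described by counts and medians only. The named genes are all 42 members, TMEM88, and from each pathway list up to 3 called genes or, with none called, the 2 brightest; markers of other cell types are named where they stand beside a result. Figures were drawn with matplotlib 3.10.9.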

Additional observations from a re-analysis of the deposited data

How the results depend on the processing

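No member of the set passed with the settings reported, nor with median scaling, detection on all 4 arrays, no detection filter or the mean of detected probes. The member count was 1 (CCND1) with the deposited matrix, where 193 of 10377 genes passed, and with uncorrected background, where 181 did. It was 2 (CCND1 and CDK6) with an intensity trend, where 288 of all genes passed, and at an adjusted p under 0.10. Without an array it ranged from 0 to 6. The count over all genes, 205, became 19 with no detection filter, where more genes were tested, and 448 at 0.10, and ranged from 50 to 1453 without an array; each such fit leaves a lone array in 1 group and assumes that it varies like the other group. The median of the members, 0.04, became -0.023 with median scaling and -0.018 with the mean of detected probes, and ranged from -0.16 to 0.24 without an array. Genes past 2-fold between the controls, 727, were 149 with the deposited matrix and 149 with uncorrected background, with 2 members in place of 3 under each. Members past 2-fold with hairpin 94 were 1 in place of 2 under those settings and under median scaling. The sign turned under median scaling for GINS2 (-0.0080), CDK2 (-0.0036), BIRC5 (-0.045) and TOP2A (-0.014), and under the mean of detected probes for UBE2C (-0.30), CDKN1B (-0.14), CKS2 (-0.013) and SKP2 (0.25). The cause of these shifts was not tested beyond what is stated. Leaving out an array moved the log2 difference within -0.23 to 0.037 for MCM2, -0.082 to 0.23 for MCM3, -0.11 to 0.34 for MCM4, -0.23 to 0.21 for MCM5, -0.38 to 0.23 for CDT1, -0.17 to 0.25 for GINS2, -0.41 to 0.23 for RRM1, -0.11 to 0.57 for TYMS, -0.36 to 0.31 for CCNE1 and -0.059 to 0.19 for CDK2. Likewise it lay within -0.47 to 0.15 for CDC25A, -0.19 to 0.63 for CCNA2, -0.092 to 0.70 for CDK1, -0.25 to 0.63 for CDC25C, -0.0053 to 0.43 for AURKA, -0.073 to 0.72 for PLK1, -0.14 to 0.93 for BUB1, -0.18 to 0.13 for BUB1B, -0.44 to 0.50 for BIRC5 and -0.12 to 0.59 for CENPA. Likewise it lay within -0.36 to 0.16 for CDC20, -0.83 to 0.093 for MKI67, -0.52 to 0.62 for TOP2A, -1.04 to 0.12 for CDKN1A, -0.11 to 0.44 for CDKN1B, -0.077 to 0.29 for CKS2, -0.080 to 0.44 for RPA3 and -0.043 to 0.28 for MYCN. All ranges cross 0, and 25 of the 40 members are among them. No paired analysis was possible because the groups share no replicate code in the labels.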
